A study of Mus musculus with 12 samples.

Results

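The 33 genes described here encode the enzymes that make cholesterol and fatty acids together with the SREBP proteins that control them, and were taken by symbol from a list of the pathway, out of the 55573 genes of the count table. All 33 were present and all 33 passed the filter on low counts. RNA came from MEFs, the fibroblasts of mouse embryos, here of embryos at E13.5 from the reprogrammable i4F mouse line, whose strain the labels give as C57BL/6 and the study's methods as a C57/BL6J background. Doxycycline switches on a transgene in these cells that encodes Oct4, Sox2, Klf4 and cMyc (OSKM), a set of factors able to turn fibroblasts into pluripotent stem cells. MEF libraries came from cells without doxycycline and OSKM libraries from cells given doxycycline at 1 µg/ml (the unit of the labels, where the study's methods have mg/ml), each without or with 2 µM vitamin B12, and all cells were in stem cell medium for 72 h. The 3 clones of the labels, numbered 1 to 3 and grown from separate embryos, each gave 1 library of each of the 4 groups, so a group holds 3 libraries and there are 12 in all. The MEF groups carry the transgene too, and because only OSKM cells received doxycycline, the drug and the factors cannot be told apart.

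Sterol regulatory element-binding proteins (SREBPs) are transcription factors made as precursors in the membrane of the endoplasmic reticulum. Scap escorts them to the Golgi apparatus, where they are cut and released to the nucleus, and the Insig proteins hold Scap back when sterols are plentiful. SREBP2, from Srebf2, is best known for driving the sterol genes and SREBP1, from Srebf1, for driving the fatty acid genes, and Insig1 is itself a classic target that closes the feedback loop. Vitamin B12 is a cofactor of methionine synthase and of methylmalonyl-CoA mutase.

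Libraries held 56971244 to 79236795 counted read pairs, of which the 33 genes made up 0.388% to 0.538%. The smallest count of any of the 33 genes in any library was 1440. The part of counting error in the spread between libraries was not measured for single genes. All 10 fibroblast markers were expressed, with a summed level of 88980 to 142200 CPM (counts rescaled so that each library sums to 1e6). Pou5f1, which encodes Oct4, reached 18.5 to 20.7 CPM in the OSKM and OSKM+B12 libraries of clones 1 and 2 but only 2.86 and 2.34 CPM in those of clone 3, against at most 0.468 CPM in MEF and MEF+B12 libraries. By their titles, libraries of clones 2 and 3 were numbered in an earlier year than those of clone 1. Xist, the RNA of the inactive X chromosome, lay at or below 0.0289 CPM in clone 1 and between 219 and 350.3 CPM in clones 2 and 3. Between clone 1 and the other two, embryo, sex and title year therefore change together and cannot be told apart, while clones 2 and 3 share sex and title year and differ in embryo.

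Per kilobase of exon, the highest mean level over the 12 libraries was that of Scd2, a desaturase that puts a double bond into saturated fatty acids, at 136.6 CPM per kb. Hmgcs1, which makes the HMG-CoA that feeds the mevalonate pathway, followed at 78.99 CPM per kb. Acly, which supplies cytosolic acetyl-CoA, came next at 62.27 CPM per kb. Insig1 came after it at 53.64 CPM per kb, and ran from 31.46 to 71.89 CPM per kb across libraries. At the other end Ggps1, which makes geranylgeranyl diphosphate, had 5.533 CPM per kb and Acaca, the acetyl-CoA carboxylase, 5.621. Srebf2 at 31.43 CPM per kb lay above Srebf1 at 17.85, with no overlap between the Srebf2 range of 25.6 to 35.5 and the Srebf1 range of 15.48 to 19.92. Some counts are less certain because transcripts share sequence with other genes: 43.75% of the 31-base words of Acat2 and 33.35% of those of Acaca occur in other genes, as do 27.94% for Fdps, 18.8% for Idi1, 14.3% for Fdft1, 12.86% for Tm7sf2 and 10.31% for Ggps1.

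RefSeq promoter sequence (GRCm38.p6) was at hand for 26 of the 33 genes. SREBPs bind sterol regulatory elements, usually beside a CCAAT box bound by the factor NF-Y, and also the E-box CACGTG. In the 250 bases upstream of the start, on either strand, CCAAT occurred in 20 of the 26 genes (76.9%), against 37.5% of all 27025 genes with a window. CACGTG occurred in 5 of 26 (19.2%), namely Scap, Insig1, Hsd17b7, Sc5d and Dhcr7, against 6.86% of all genes. A sterol element spelled TCACNCCAC occurred in Hmgcs1 alone, and the overlapping form TCACCNCAC in Hmgcs1 and Hsd17b7, against 1.22% and 1.28% of all genes. Windows of 4 genes with large differences between clones, among them the carrier of the sterol element, are shown 5′ to 3′ on the strand of the gene, with the matches to these motifs, or to their reverse complements, in capitals. The genes are Insig1 (chr5:28071162-28071362, plus strand), Hmgcs1 (chr13:119690101-119690350, plus strand), Sc5d (chr9:42264301-42264550, minus strand) and Ebp (chrX:8193513-8193762, minus strand). The Insig1 window stops where its annotated first exon begins.
Insig1: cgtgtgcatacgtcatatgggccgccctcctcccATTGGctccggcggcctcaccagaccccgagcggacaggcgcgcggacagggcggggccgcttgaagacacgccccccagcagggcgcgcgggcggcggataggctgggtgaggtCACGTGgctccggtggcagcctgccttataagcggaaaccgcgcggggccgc
Hmgcs1: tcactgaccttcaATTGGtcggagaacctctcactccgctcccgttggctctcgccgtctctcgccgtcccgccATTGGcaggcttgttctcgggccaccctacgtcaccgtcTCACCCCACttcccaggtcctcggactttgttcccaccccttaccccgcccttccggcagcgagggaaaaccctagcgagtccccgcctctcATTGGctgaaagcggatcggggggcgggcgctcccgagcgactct
Sc5d: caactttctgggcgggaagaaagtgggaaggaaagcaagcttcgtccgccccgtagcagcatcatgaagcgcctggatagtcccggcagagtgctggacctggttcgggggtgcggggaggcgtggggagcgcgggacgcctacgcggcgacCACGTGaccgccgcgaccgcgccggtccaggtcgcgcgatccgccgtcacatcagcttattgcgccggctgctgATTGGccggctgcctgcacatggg
Ebp: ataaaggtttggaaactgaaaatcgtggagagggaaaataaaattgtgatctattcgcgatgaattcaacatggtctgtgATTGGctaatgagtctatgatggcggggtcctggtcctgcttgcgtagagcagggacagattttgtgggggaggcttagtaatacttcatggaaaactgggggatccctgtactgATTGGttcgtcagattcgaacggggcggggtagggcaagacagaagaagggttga
In Hmgcs1 the sterol element lies between CCAAT boxes read on the opposite strand, and the Insig1 and Sc5d windows each hold 1 E-box and 1 CCAAT box. A match is a description of the letters and not of binding.

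**Figure D1:**
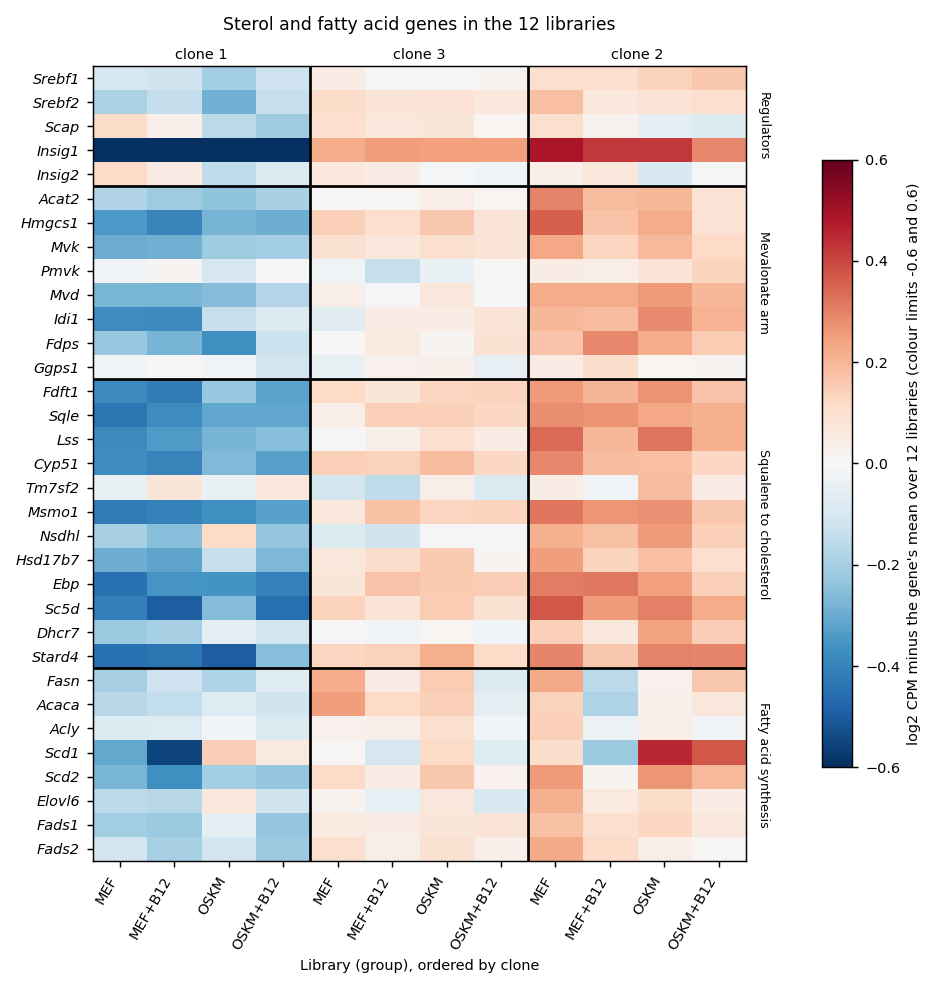
Heat map of the 33 genes (vertical axis, by role) in the 12 libraries (horizontal axis, grouped by clone), coloured by log2 CPM minus the mean of that gene over the 12 libraries, with colours capped at -0.6 and 0.6. Clone 1 is blue for most genes in all 4 groups, while Scap, Insig2 and Scd1 also change between groups within a clone.

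The first comparison asked whether the sterol and fatty acid genes respond to induction of OSKM, and they changed little. Averaged over both B12 states, 3 of 33 genes passed the threshold (edgeR quasi-likelihood F test, adjusted p under 0.05), namely Scd1 upwards and Scap and Insig2 downwards, a share close to the 9.73% of all 19174 genes tested. With library totals 2 genes passed upwards, Idi1 and Scd1, and 0 downwards, against 11.1% of all genes in either direction. The median log2 fold change was 0.015 for the 33 genes and -0.003 for all genes. With library totals these medians were 0.061 and 0.043. Taken by B12 state, 0 of 33 genes passed without B12 (background 0.073%) and 0 of 33 with B12 (background 0.104%). At an unadjusted p under 0.05 it was 5 of 33 without B12, against 3641 of all 19174 genes, and 2 of 33 with B12, against 2854. DESeq2 called 0 of the 33 without B12, against 3.18% of all genes, and 1 with B12, Scd1, against 2.43%, a share close to that of all genes.

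Among the regulators, all 5 fold changes with induction were negative with TMM scaling, and 3 of them turned positive with library totals. That scaling also moved the median of all genes, from -0.003 to 0.043. Scap, the escort protein (chr9:110333288-110384950), stood at 105.5, 104.2 and 104.6 CPM in the MEF libraries of clones 1, 2 and 3 and at 99.75, 99.22 and 102.5 CPM in MEF+B12. It stood at 87.28, 93.85 and 102.7 CPM in OSKM and at 84.14, 92.12 and 98.58 CPM in OSKM+B12. Each induced library lay below the uninduced library of the same clone and B12 state, and the step was deepest in clone 1 and shallowest in clone 3. The log2 fold change was -0.14 ± 0.04 (SE, 12 libraries, adjusted p = 0.0409 by edgeR), a fall of 9.46%. Insig2, an anchor protein of the endoplasmic reticulum that retains Scap (chr1:121304353-121332589), stood at 31.77, 30.15 and 30.61 CPM in MEF, 30.32, 30.71 and 30.26 in MEF+B12. Its OSKM libraries had 26.35, 27.56 and 29.21 CPM and its OSKM+B12 libraries 27.6, 29.12 and 28.79 CPM. All 6 induced libraries lay below all 6 uninduced ones, and the log2 fold change was -0.12 ± 0.03 (adjusted p = 0.0483 by edgeR).

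Srebf1 and Srebf2 themselves did not pass, with log2 fold changes of 0.00 (95% confidence interval -0.07 to 0.06) and -0.03 (-0.11 to 0.04), so a change beyond about these bounds was not seen at the transcript level. For Insig1 the log2 fold change was -0.03 (-0.11 to 0.05). Scaling by library totals in place of TMM factors left Scap at -0.10 and Insig2 at -0.08, neither past the threshold, and put Srebf1, Srebf2 and Insig1 at 0.04, 0.01 and 0.02.

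In the mevalonate arm, which builds isoprenoid units from acetyl-CoA, 0 of 8 genes passed. Idi1, the isomerase that makes the reactive isoprene unit, had the largest fold change of the 8. It stood at 100.9, 150.2 and 124.8 CPM in the MEF libraries of clones 1 to 3, and at 100.5, 149 and 135.2 CPM in MEF+B12. Induced cells had 119.1, 159.1 and 134.9 CPM without and 123.7, 151.3 and 137.9 CPM with B12. Each induced library was above the uninduced library of the same clone and B12 state, but clone 2 uninduced lay above clone 1 induced. The log2 fold change of 0.13 ± 0.04 missed the threshold (adjusted p = 0.0795 by edgeR). With library totals, which put the median of all genes at 0.043, it was 0.18 and passed (adjusted p = 0.0324 by edgeR). The other 7 genes, the thiolase Acat2, Hmgcs1, the kinases Mvk and Pmvk, the decarboxylase Mvd and the prenyl diphosphate synthases Fdps and Ggps1, had fold changes of -0.04 to 0.03 on the log2 scale.

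In the branch from squalene to cholesterol, 10 of 12 genes had positive fold changes, against 49.1% of all genes, and 0 of 12 passed. Taken by B12 state, 12 were positive without B12 and 8 with B12. In clone 2, Sqle, Cyp51, Msmo1, Hsd17b7, Ebp and Sc5d were lower with induction in both B12 states, and Tm7sf2, Dhcr7 and Stard4 higher in both. The largest averaged fold change was that of Nsdhl, an X-linked enzyme that removes a carboxyl group from sterol intermediates (chrX:72918557-72958514). It was 0.09 ± 0.05 on the log2 scale (adjusted p = 0.239 by edgeR). Nsdhl stood at 57.59, 76.59 and 62.4 CPM in MEF, and 55.42, 74.76 and 60.93 in MEF+B12. Induced cells had 71.79, 78.82 and 65.7 CPM without and 56.32, 73.01 and 65.58 CPM with B12. Its OSKM library of clone 1 was well above the other 3 libraries of that clone. The remaining genes, the synthase Fdft1, the epoxidase Sqle, the cyclase Lss, the demethylase Cyp51, the methyl oxidase Msmo1, the reductases Tm7sf2, Hsd17b7 and Dhcr7, the isomerase Ebp, the desaturase Sc5d and the sterol carrier Stard4, ran from -0.02 to 0.07 on the log2 scale.

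In fatty acid synthesis and desaturation, Scd1 was the member that moved. Scd1, a desaturase that makes oleate and palmitoleate (chr19:44394455-44407879), stood at 102.8, 136.7 and 128 CPM in the MEF libraries of clones 1, 2 and 3 and at 86.77, 109.2 and 118.7 CPM in MEF+B12. It stood at 140.9, 173.9 and 138 CPM in OSKM and at 132.4, 164.9 and 120.9 CPM in OSKM+B12. Clones 1 and 2 were higher with induction in both B12 states, whereas in clone 3 the induced libraries differed little from the uninduced ones. The log2 fold change was 0.36 ± 0.07 (adjusted p = 0.0214 by edgeR), a rise of 28.0%. The sister desaturase Scd2 had 0.07 ± 0.04 (adjusted p = 0.269) and the synthase Fasn, the carboxylase Acaca, Acly, the elongase Elovl6 and the desaturases Fads1 and Fads2 had -0.05 to 0.03.

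In these libraries the step of Scd1 with induction was smallest in clone 3. Its log2 difference without B12 was 0.45 in clone 1, 0.35 in clone 2 and 0.11 in clone 3, and with B12 it was 0.61, 0.59 and 0.03. A test of the product of clone and induction gave an adjusted p of 0.0337 (edgeR), and Scd1 was the only 1 of 33 genes past the threshold, a share close to the background of 2.15%. Each clone is 1 embryo, so this p-value measures the spread between libraries of single embryos and not between embryos. Clone 3 was also the clone with the least Pou5f1, and the part of that in the Scd1 difference was not tested. Leaving out clone 3 gave a log2 fold change with induction for Scd1 of 0.50 and an adjusted p of 0.000238 (edgeR). Without clone 1 it was 0.27 (adjusted p = 0.262) and without clone 2 it was 0.30 (adjusted p = 0.426), so neither passed. In those 2 fits 0.0524% and 0.0155% of all genes passed, against 15.9% in the fit without clone 3.

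These calls rest on few libraries. Leaving out any 1 library of clone 1 or clone 2 other than the OSKM library of clone 1 left 0 of 33 genes past the threshold, and without that OSKM library only Scd1 passed. In the 7 fits with 0 genes, 0.251% to 0.456% of all genes passed, in place of 9.73%, and the log2 fold changes stayed at 0.32 to 0.35 for Scd1 and -0.12 to -0.15 for Scap. Without the filter on low counts Insig2 did not pass (adjusted p = 0.0918 by edgeR). For Scap the adjusted p with 1 library of clones 1 or 2 left out was 0.0775 to 0.135, and for Scd1 with any of the 7 libraries other than that OSKM library left out it was 0.0679 to 0.0818. The clone difference for Scd1 was likewise lost, at 0.0720 to 0.327, without any 1 of 9 of the 12 libraries.

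Some markers of other cell types moved with induction, in the fit in which 9.73% of all genes passed. Of 5 adipocyte markers with enough counts of 11 listed, Pparg rose by 0.50 and Plin4 by 0.68 on the log2 scale, while the summed level was 76.86 to 163.1 CPM without and 81.02 to 166.3 CPM with induction. Cidec and Lep were at 0 in every library and Adipoq, Plin1, Retn and Cfd never exceeded 0.118 CPM. Of 4 endothelial markers with enough counts of 7 listed, 2 rose, Tek and Cdh5, and the summed level of the list was 43.92 to 48.15 CPM without induction, 126.5 to 146.2 CPM in induced libraries of clones 1 and 2, and 55.32 and 50.88 CPM in those of clone 3. The high values were thus in the same clones as the larger Scd1 steps. Most of the sum was Tek, at 34.26 to 138.7 CPM, while the defining markers Pecam1, Tie1 and Emcn never exceeded 0.279 CPM. Of 10 fibroblast markers 4 fell, Col1a1, Col1a2, Pdgfra and Pdgfrb, and 0 rose, while 3 of the 10 had positive fold changes. Their summed level was 112400 to 142200 CPM without and 88980 to 116500 CPM with induction. The collagen genes Col1a1, Col1a2 and Col3a1 made up most of that sum. Whether any of these markers have a part in the changes with induction was not tested, and in bulk RNA fewer cells of a type and less RNA per cell cannot be told apart. Of 13 macrophage markers 2 fell with induction, Adgre1 and Csf1r.

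**Figure D2:**
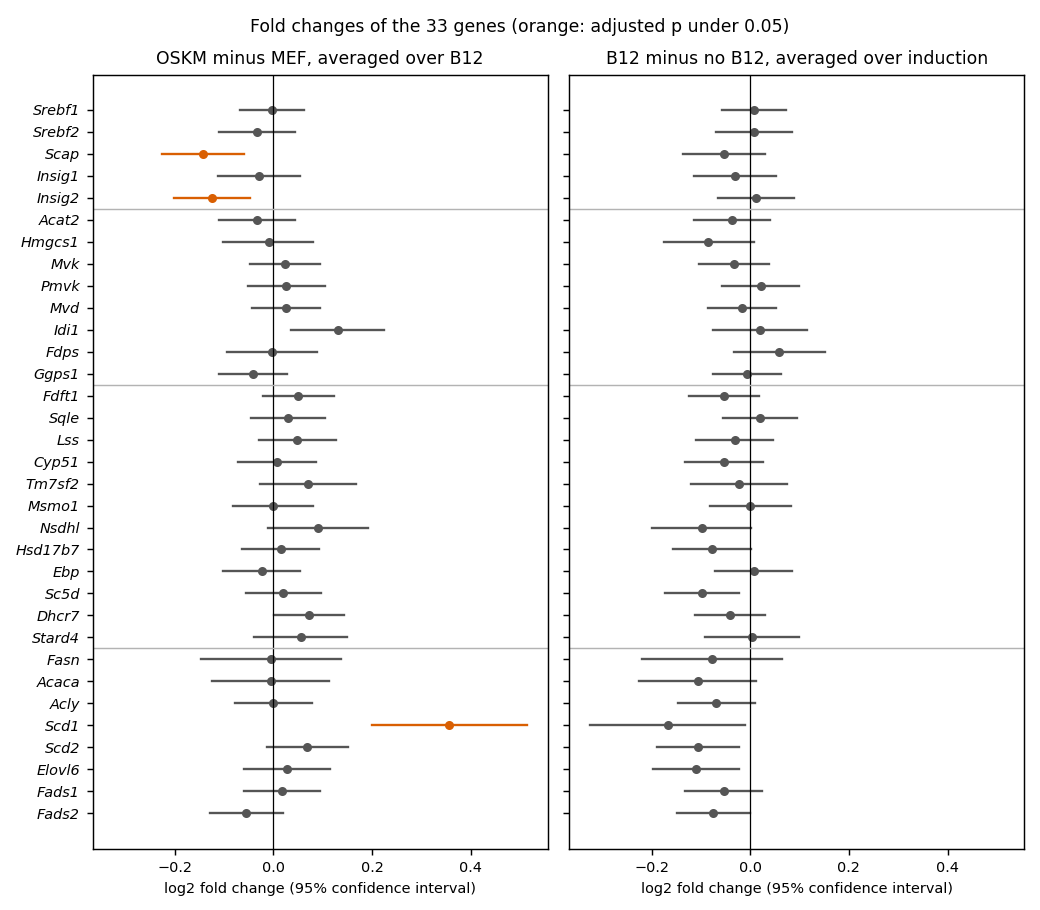
Log2 fold changes (horizontal axis) of the 33 genes (vertical axis, in role order) with 95% confidence intervals from edgeR over 12 libraries, for induction (left) and vitamin B12 (right), orange where the adjusted p was under 0.05. Scd1, Scap and Insig2 are orange on the left, no gene is orange on the right, and all 8 genes of the lowest block lie below 0 on the right.

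Genes of the same pathways outside the 33 changed in both directions, in the same fit in which 9.73% of all genes passed. Of all 19174 genes tested there, 856 rose and 1009 fell. Of 12 genes for SREBP processing and sterol sensing, 2 fell and 0 rose with induction. Both export cholesterol from lysosomes, Npc1 with a log2 fold change of -0.18 ± 0.05 and Npc2 with -0.21 ± 0.04. Of 17 other sterol and isoprenoid enzymes, Pdss1, which builds the side chain of ubiquinone, rose by 0.25 and 2 fell, Nus1 (-0.15), part of the dolichol-making enzyme, and Soat1 (-0.22), which esterifies cholesterol. Of 24 other fatty acid genes with enough counts, Acss2, which makes acetyl-CoA from acetate, rose by 0.13 and 4 fell, the acyl-CoA synthetase Acsl1 (-0.39), the dehydratase Hacd2 (-0.24), Mid1ip1 (-0.20), which assists acetyl-CoA carboxylase, and Fads3 (-0.18).

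The next comparison was of cells with and without vitamin B12. Averaged over induction states, 0 of 33 genes passed the threshold by edgeR, against 3.84% of all genes, with 5 of 33 at an unadjusted p under 0.05, against 2964 of 19174, and 0 with DESeq2, against 5.54%. In OSKM cells it was 0 of 33 (background 1.06%, 4 unadjusted against 1883 of all genes, 0 with DESeq2 against 2.38%) and in MEF cells 0 of 33 (background 1.38%, 1 unadjusted against 1972 of all genes, 0 with DESeq2 against 2.72%). The interaction, the B12 effect in OSKM cells minus that in MEF cells, called 0 of 33 by edgeR (background 0%, 0 unadjusted, 0 with DESeq2). The averaged fold changes were small, from -0.17 to 0.06 on the log2 scale with a median of -0.04, against -0.01 for all genes.

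Averaged over induction states, all 8 fatty acid genes had lower values with B12 without passing the test. Their median log2 fold change was -0.09, while 10562 of the 19174 genes tested were negative. In OSKM cells alone 7 were negative and Fasn was at 0.01. The median of the 8 was -0.07 with library totals, and all 8 stayed negative under every scaling and with any 1 library or clone left out. Fibroblast markers lay on the same side by about as much, 9 of 10 negative with a median of -0.11 and 0 past the threshold, whereas macrophage markers had a median of 0.56, and the part of either in the fatty acid genes was not tested. Scd1 had the largest change, -0.17 ± 0.07 (adjusted p = 0.285 by edgeR), and was lower with B12 in each of the 6 pairs of libraries that share clone and induction state. Scd2 was at 611.7, 882.6 and 799.1 CPM in the MEF libraries of clones 1 to 3, and at 572.9, 746 and 762.3 CPM in MEF+B12. Induced cells had 640.3, 888 and 826.7 CPM without and 629.8, 844.2 and 751.1 CPM with B12. It was likewise lower with B12 in all 6 pairs, by -0.11 ± 0.04 (adjusted p = 0.190). The other 6, Fasn, Acaca, Acly, Elovl6, Fads1 and Fads2, lay between -0.11 and -0.05. Not all of these were lower in every pair, and Fasn was higher with B12 in both states of clone 1 and in OSKM cells of clone 2.

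In the sterol branch 8 of 12 genes were negative, or 7 with library totals. The lowest were Nsdhl at -0.10 ± 0.05 (adjusted p = 0.334 by edgeR) and the desaturase Sc5d at -0.10 ± 0.03 (adjusted p = 0.181). In the mevalonate arm 5 of 8 were negative, or 3 with library totals, with Hmgcs1 lowest at -0.08 ± 0.04 (adjusted p = 0.367). Hmgcs1 stood at 281.4, 458.8 and 395 CPM in MEF, and at 271.5, 403.1 and 384 CPM in MEF+B12. Induced cells had 294.5, 416.9 and 399.7 CPM without and 292.4, 380.1 and 377.1 CPM with B12, so each clone was lower with B12 in both states. Of the regulators, Scap had -0.05 (95% confidence interval -0.14 to 0.03), Insig1 -0.03 (-0.11 to 0.05), Srebf1 0.01 (-0.06 to 0.07) and Srebf2 0.01 (-0.07 to 0.08).

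Of the 12, 17 and 24 genes tested in the 3 related lists, 2 passed the threshold with B12 averaged over states, both upwards, a share near the 3.84% of all genes. Por, the reductase that hands electrons to Cyp51 and other cytochromes P450, had a log2 fold change of 0.26 ± 0.05 (adjusted p = 0.00882 by edgeR) averaged over states and 0.32 in MEF cells. Acsl1 had 0.32 ± 0.07 (adjusted p = 0.0332). Macrophage markers moved with them: 12 of 13 rose with B12, all but Cx3cr1, and their summed level was 1387 to 2628 CPM without and 2090 to 3475 CPM with B12, with no listed marker at 0. The adipocyte-listed Cd36, which macrophages also express, rose by 0.87. The part of these cells in any change with B12 was not tested.

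The levels of the 33 genes separated the libraries by clone. A comparison between clones was added after the data had been seen, and each clone gave 4 libraries, so its p-values measure the spread between libraries of single embryos and not between embryos. In clone 2 against clone 1, 25 of 33 genes were higher and 0 lower (background 15.3% of genes higher in clone 2), with a median log2 difference of 0.40 against -0.004 for all genes. In clone 3 against clone 1, 24 were higher and 0 lower (background 16.2%), with a median of 0.27. Clones 2 and 3 were closer, with 7 higher in clone 2 (background 3%) and a median of 0.11, and that count ran from 1 to 11 when single libraries were left out.

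The levels did not overlap for most of the genes. All 4 libraries of clone 1 lay below all 4 of clone 2 for 25 genes (background 11.9%), and for 12 genes the 3 clones were separate in the order 1, 3, 2 (background 0.574%). Those 12 were Srebf1, Insig1, Acat2, Mvk, Mvd, Idi1, Fdps, Fdft1, Sqle, Lss, Sc5d and Dhcr7. Clone accounted for a median of 89.9% of the sum of squares of log2 CPM across the 33 genes, against 38% across all genes tested. Above 80% lay 21 of the 33 genes (63.6%), against 9.63% of all genes. All genes tested include many with lower counts than the 33, and the shares were not matched for level. The share left after clone and group had a median of 5.7% across the 33 genes and 27.2% across all genes. Summed over the 33 genes, the level was 3812 to 4064 CPM in clone 1, 4789 to 5047 CPM in clone 3 and 4987 to 5493 CPM in clone 2.

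**Figure D3:**
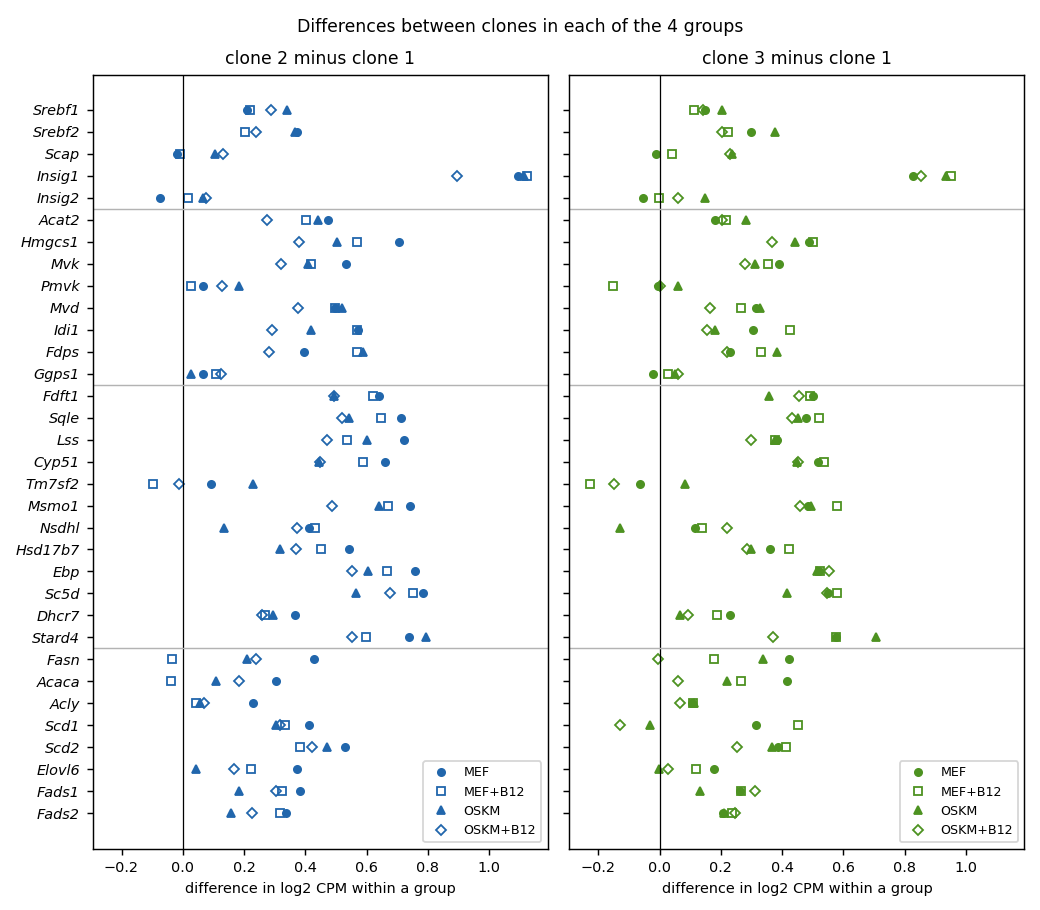
Difference in log2 CPM (horizontal axis) between clone 2 and clone 1 (left) and between clone 3 and clone 1 (right) for the 33 genes (vertical axis, in role order), with 1 symbol per group. Genes of the third block, from squalene to cholesterol, lie to the right of 0 in all 4 groups apart from Tm7sf2 and, in clone 3, Nsdhl, and Insig1 lies farthest out.

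Among the regulators the largest step was that of Insig1 (chr5:28071363-28078662), the feedback target whose promoter is shown above. It stood at 104, 97.29, 98.03 and 103.8 CPM in the MEF, MEF+B12, OSKM and OSKM+B12 libraries of clone 1. The same 4 groups gave 222.3, 212, 212.4 and 193.1 CPM in clone 2 and 184.7, 188.3, 187.2 and 187.7 CPM in clone 3. The ranges of the 3 clones did not overlap, and clone 2 exceeded clone 1 by 1.06 ± 0.05 on the log2 scale (adjusted p = 2.93e-07 by edgeR), a 2.08-fold difference. Its relative Insig2 differed by 0.02 ± 0.04 (adjusted p = 0.748) and Scap by 0.05 ± 0.05 (adjusted p = 0.438).

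The genes of the factors themselves differed less than Insig1 did. Srebf2 stood at 197, 203.6, 183.9 and 203.9 CPM in clone 1, at 255, 234.6, 237 and 240.6 CPM in clone 2 and at 242.4, 237.4, 239 and 234.8 CPM in clone 3. Clone 1 lay below both others, and the difference of clone 2 was 0.29 ± 0.04 (adjusted p = 0.00054 by edgeR). Srebf1 stood at 93.2, 92.21, 87.19 and 91.93 CPM in clone 1, at 107.7, 107.4, 110.3 and 112.3 CPM in clone 2 and at 103.3, 99.75, 100.5 and 101.4 CPM in clone 3, with a difference of 0.26 ± 0.04 for clone 2 (adjusted p = 0.000377).

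In the mevalonate arm 6 of 8 genes were higher in clone 2, with a median difference of 0.44 on the log2 scale. Hmgcs1 led with 0.54 ± 0.05 (adjusted p = 3.75e-05 by edgeR), followed by the decarboxylase Mvd with 0.47 ± 0.04 (adjusted p = 1.45e-05). Ggps1, which leads away from sterols, was at 0.08 ± 0.04 (adjusted p = 0.131), and the kinase Pmvk also missed the threshold.

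From squalene to cholesterol 11 of 12 genes were higher in clone 2, with a median difference of 0.57. Sc5d (chr9:42251595-42264256), which introduces a double bond late in the pathway, stood at 78.24, 73.91, 87 and 76.14 CPM in clone 1, at 134.9, 124.5, 128.7 and 121.7 CPM in clone 2 and at 114.7, 110.4, 116 and 111.2 CPM in clone 3. The clones were separate, and clone 2 exceeded clone 1 by 0.69 ± 0.04 (adjusted p = 2.44e-06 by edgeR). Stard4, which carries cholesterol between membranes, differed by 0.67 ± 0.05, the X-linked isomerase Ebp by 0.65 ± 0.04, the methyl oxidase Msmo1 by 0.63 ± 0.05 and Sqle, the epoxidase that acts on squalene, by 0.61 ± 0.04. Tm7sf2 differed by 0.05 ± 0.05 (adjusted p = 0.508).

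In the fatty acid group 5 of 8 genes were higher in clone 2, with a median difference of 0.24 on the log2 scale. Scd2 differed most, by 0.45 ± 0.05 (adjusted p = 6.1e-05 by edgeR), and Fads1 and Fads2, which desaturate polyunsaturated fatty acids, by 0.30 ± 0.04 and 0.26 ± 0.04. Scd1 and Elovl6 also passed. By edgeR, Fasn at 0.21 ± 0.08 (adjusted p = 0.0645), Acaca at 0.14 ± 0.07 (adjusted p = 0.132) and Acly at 0.10 ± 0.04 (adjusted p = 0.110) did not pass. Fasn passed with DESeq2 (adjusted p = 0.0357). Clone 3 against clone 1 differed in this, with Fasn at 0.23 ± 0.08 (adjusted p = 0.0414) and Acaca at 0.24 ± 0.07 (adjusted p = 0.0161) past the threshold by edgeR. Scd1, Elovl6 and Acly did not pass there.

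**Figure D4:**
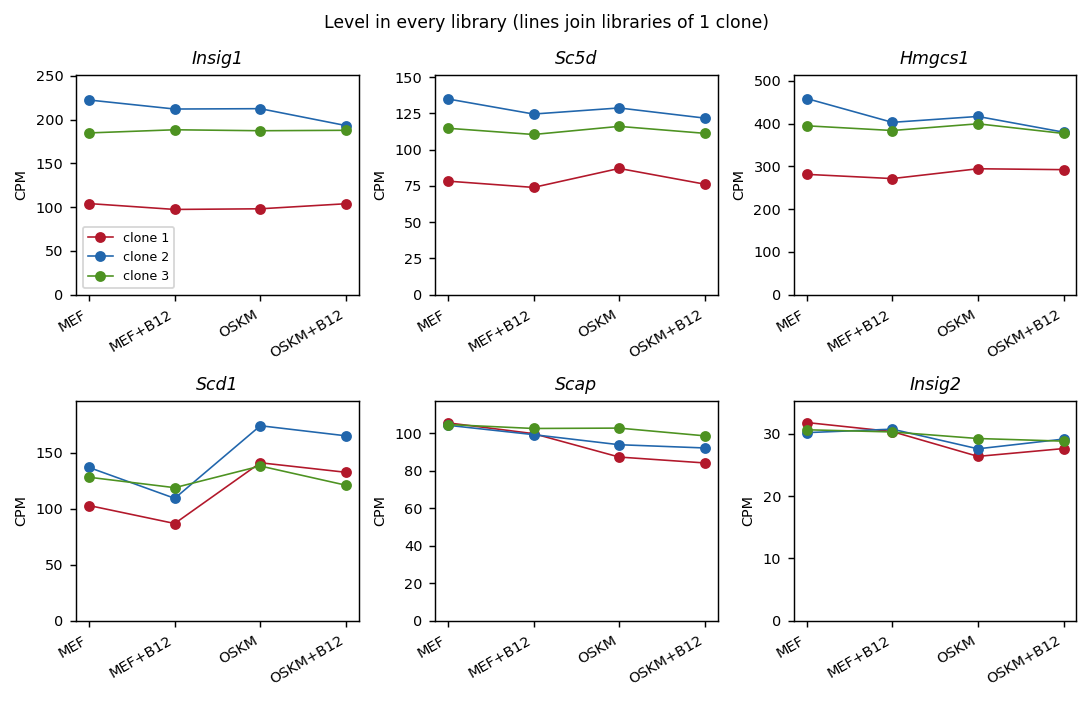
Level in CPM (vertical axis from 0) of 6 genes in the 4 groups (horizontal axis), 1 point per library, with lines joining the libraries of a clone. Clone 1 lies below the other clones throughout for Insig1, Sc5d and Hmgcs1, Scd1 is higher with induction in clones 1 and 2, and Scap and Insig2 are lower in induced cells.

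Within MEF and MEF+B12 libraries alone 25 of the 33 genes were higher in clone 2 than in clone 1, where 32.3% of all genes passed in either direction. Within OSKM and OSKM+B12 libraries alone 20 were higher, where 9.47% of all genes passed. Across the 12 libraries the log2 CPM of a gene correlated with those of the other 32 at a median Pearson r that ran from 0.06 for Tm7sf2 and 0.07 for Insig2 up to 0.94, a description over libraries that share 3 clones. The response to B12 did not show a difference between clones in any of the 33 genes (0 of 33 by edgeR, background 0%, 0 at an unadjusted p under 0.05, and no other tool was run).

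Related genes outside the 33 differed between the clones too, where 2931 of all 19174 genes were higher and 3037 lower in clone 2 than in clone 1. Of 12 genes for SREBP processing and sterol sensing, 4 were higher and 1 lower in clone 2 than in clone 1, among them the sterol-responsive Tmem97 at 0.35 ± 0.04 and Npc2 at 0.60 ± 0.05, while the ubiquitin ligase Rnf145 was at -0.21 ± 0.05. Of 17 other sterol and isoprenoid enzymes 7 were higher and 0 lower, including Erg28 at 0.53 ± 0.05 and Aacs at 0.52 ± 0.04. Of 24 other fatty acid genes 11 were higher and 1 lower, with Elovl7 at 1.15 ± 0.17 the largest and malic enzyme Me1 at -0.11 ± 0.04 the lower.

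Other cell features differed between the clones as well. Of all 19174 genes 3037 were lower in clone 2 and 3375 in clone 3 than in clone 1, and 2931 and 3099 were higher. Of 8 proliferation markers 7 were lower in clone 2 and 8 in clone 3 than in clone 1, with summed levels of 615.8 to 676.8 CPM in clone 1, 499.1 to 569.1 CPM in clone 2 and 530.4 to 555.1 CPM in clone 3. Of 13 macrophage markers 8 were lower in clone 2, and 9 lower and 1 higher in clone 3, with summed levels of 2433 to 3475 CPM in clone 1, 1563 to 2821 CPM in clone 2 and 1387 to 2183 CPM in clone 3. Of the 5 adipocyte markers tested 3 were higher in clone 2, Fabp4, Cebpa and Plin4, by up to 2.92 on the log2 scale. In clone 3 it was 2 higher and 1 lower. Their part in the sterol gene difference was not tested.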

How the data were processed

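RNA was measured in 12 libraries, 3 clones in each of 4 groups. The authors made strand-specific poly(A) libraries, aligned read pairs with STAR 2.5.2 (version per the labels) to mm10 (GRCm38), and summarised them by gene with the reverse-stranded setting of featureCounts, adding flow cells together. The deposited table holds raw counts, not normalised. Library totals were 56971244 to 79236795, which leaves counting error small, but no molecular identifiers were used and amplification error is not covered.

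Symbols, positions and exon lengths came from GENCODE M21, which matched 55394 of 55573 identifiers. Fold changes and p-values came from edgeR 4.0.16 (R 4.3.3), with TMM factors of 0.934 to 1.06, filterByExpr by group (19174 genes kept), clone as a block and group in 1 fit over 12 libraries, the quasi-likelihood F test and Benjamini-Hochberg adjustment over all genes at a threshold of 0.05. All tests were two-sided, and ± is the standard error. Fits with the product of clone and induction, or clone and B12, tested differences in response. CPM used TMM-scaled totals, and log2 CPM a prior count of 2. DESeq2 1.42.0, other scalings and filters, fits without the block and fits without single libraries or clones were the alternatives. The scripts were tested on simulated data. Libraries of a clone varied together, with residuals after group means correlated at 0.27 to 0.687 in the 18 pairs of a clone. The 48 other pairs reached at most 0.17, but residuals cancel out within a group, which pushes correlations between clones down. The pairing by clone was taken from the labels.

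The 33 genes, the other pathway lists and the markers were chosen with earlier results of these data known. Every member is named, and values per library are given for members past the threshold in any comparison of the groups and, in each role group, for the member of largest change with induction and with B12. Insig1, Srebf1, Srebf2, Sc5d and Scd2 and those named in the clone comparison were added after their values were seen. Promoter windows came from RefSeq on GRCm38.p6.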

Additional observations from a re-analysis of the deposited data

Results flagged for a closer look

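The response of Scd1 to induction passed the threshold for a clone difference by a test of the difference itself, with an adjusted p of 0.0337 (edgeR, product of clone and induction), as did 2.15% of all genes. Each clone is 1 embryo, so this p-value measures the spread between libraries of single embryos and not between embryos. The call was lost, at 0.0720 to 0.327, without any 1 of 9 of the 12 libraries. Its log2 difference was 0.45 and 0.61 in clone 1, 0.35 and 0.59 in clone 2 and 0.11 and 0.03 in clone 3, without and with B12. Pou5f1 in induced libraries was 18.5 to 20.7 CPM in clones 1 and 2 and 2.34 to 2.86 CPM in clone 3. The adjusted p was 0.0508 without clone 2 and 0.897 without clone 3.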

How the results depend on the processing

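The number of the 33 genes past the threshold for B12 in OSKM cells, for B12 averaged over states, for the interaction and for the clone difference in the response to B12 was 0 under every alternative run, and for B12 in MEF cells it was 0 except for 1 (Scd1) when only the libraries compared were fitted. Clone 2 against clone 1 gave 24 to 26 genes higher when single libraries were left out, where 22.1% to 31.2% of all genes passed in either direction. Clone 3 against clone 1 gave 21 to 25 higher, where 25.2% to 33.1% passed, with Tm7sf2 lower without the OSKM library of clone 1. With library totals, clone 3 had 20 higher and 1 lower, Tm7sf2 (36.6% of all genes). Clone 3 had 27 higher in MEF and MEF+B12 libraries alone (30.2%) and 17 in OSKM and OSKM+B12 libraries alone (20.8%). Without the replicate block, induction averaged over B12 states gave 0 genes in place of 3 (and 0 of all 19174 genes), and the block changed no other call of the group comparisons. Without the filter on low counts Insig2 lost its call with induction averaged (adjusted p = 0.0918 by edgeR), and Scap and Scd1 passed. Induction with B12 gave 1 gene, Scd1, with DESeq2 and without the filter on low counts. When a clone or a library was left out, induction without B12 gave 0 to 1 genes, induction with B12 0 to 1, induction averaged 0 to 3, clone 2 against clone 3 1 to 11 and the clone difference in the induction response 0 to 2. Clone 2 against clone 3 gave 1 gene in OSKM and OSKM+B12 libraries alone. The cause of these shifts was not tested. Leaving out each library, and every alternative for the clone comparisons, was chosen after seeing the data.

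Signs of changes near 0 turned. Library totals put the median of all genes at 0.043 with induction, 0.012 with B12 and -0.076 in clone 2 against clone 1. With induction Srebf1 was 0.04 with library totals, 0.00 with at least 10 counts in every library and -0.03 to 0.02 with clones or libraries left out, Srebf2 was 0.01 with library totals, and Insig1 was 0.02 with library totals and -0.05 to 0.01 with clones or libraries left out. With B12 the ranges were -0.01 to 0.03 for Srebf1, -0.04 to 0.04 for Srebf2 and -0.05 to 0.00 for Insig1. In clone 2 against clone 1, with library totals and in MEF and MEF+B12 libraries alone, Insig2 was -0.05 and -0.03, Scap -0.02 and -0.02 and Tm7sf2 -0.02 and -0.01. With libraries left out the range was -0.01 to 0.05 for Insig2 and -0.01 to 0.09 for Tm7sf2. Counts were at least 1440 per gene and library, and the part of counting error in the spread between libraries was not measured.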
